A study of Mus musculus with 16 samples.

Results

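The nuclear genes that encode subunits of the 5 respiratory chain complexes were examined in mouse CFU-E cells, the colony-forming erythroid progenitors of the bone marrow. Members were taken by symbol: names starting Ndufa, Ndufb, Ndufc, Ndufs or Ndufv (complex I), *Sdha* to *Sdhd* (complex II), names starting Uqcr (complex III), names starting Cox4 to Cox8 (complex IV) and names starting Atp5 (complex V), leaving out the assembly factors named Ndufaf. The RNA-seq table held 79 of these among 15386 genes and the m6A table held 79 among 13490. Both tables shared 78 of them and together they listed 80, since *Ndufb4c* was listed for RNA-seq alone and *Cox7a1* for m6A alone. All 79 in each table passed the filter on low counts. The RNA-seq members comprised 38 of complex I, 4 of complex II, 8 of complex III, 12 of complex IV and 17 of complex V. By name alone these counts include *Ndufb4c*, which has no protein-coding transcript in the annotation used, and *Atp5s*, which encodes coupling factor B.

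RNA-seq compared 3 libraries of control CFU-E with 3 that carry the label of Kit-low *Mettl3* knockout CFU-E (CFU-E Kit-lo below), and m6A-seq compared 2 immunoprecipitated (IP) with 2 input libraries of control CFU-E. METTL3 is the methyltransferase that writes m6A, the methyl mark on internal adenosines of mRNA. The deficient mice were *Mettl3* fl/fl, *EpoR* Cre/- animals on a C57BL/6 background, in which Cre is driven from the *EpoR* locus (EpoR-tdTomato-Cre) and is active in erythroid cells, in macrophages of the erythroblastic islands and, in part, already in stem and progenitor cells upstream. Adult mice of both sexes were used in the study, and the labels give neither the genotype of the controls nor whether replicates came from separate animals, so p-values measure the spread between these samples, which may be technical. Both cell populations were sorted from lineage-negative, CD16/32-, CD41-, CD34-, Sca1-, CD71+ marrow. The deficient cells were those with low surface Kit, and no Kit-low control population was analysed here, so the gate and the genotype cannot be told apart in any difference given below. In bulk samples, fewer cells of a type and less RNA per cell cannot be told apart either.

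The respiratory chain sits in the inner mitochondrial membrane. Complex I takes electrons from NADH and complex II takes them from succinate, and both pass them to ubiquinone. Complex III moves them on to cytochrome c and complex IV to oxygen, while complexes I, III and IV pump protons across the membrane. Complex V, the ATP synthase, lets the protons flow back through its rotor and makes ATP. Complex II, also called succinate dehydrogenase, is at the same time an enzyme of the tricarboxylic acid cycle, the pathway that also supplies the succinyl-CoA for haem synthesis in erythroid cells. All complexes but II also contain subunits encoded by mitochondrial DNA, so that their assembly draws on both genomes.

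RNA-seq library totals ran from 17429262 to 21329242 estimated counts and m6A totals from 19421059 to 37142742. *Mettl3* mRNA itself did not separate the groups, with a log2 fold change of -0.07 ± 0.10 (SE, n = 3 and 3, edgeR adjusted p = 0.63), so every direction given here rests on the labels. *Kit* was at 598 ± 47.1 CPM in control CFU-E and at 55.2 ± 12.4 CPM in the Kit-lo libraries (SD, n = 3 each), and the 8 erythroid markers listed, among them *Klf1*, *Epor* and *Alas2*, summed to 2642 to 2756 CPM in control and 3463 to 3623 CPM in Kit-lo libraries. *Alas2*, the first enzyme of haem synthesis in erythroid cells, rose from 2.89 ± 1.42 to 137 ± 49.97 CPM (edgeR adjusted p = 4.1e-06). Stem and early progenitor markers, *Kit* among them, summed to 581 to 662 CPM in control and 46.9 to 70.7 CPM in Kit-lo libraries (4 of 5 in the table). *Kit* made up most of that sum and the Kit-lo cells were gated on low surface Kit, so the sum is not a marker independent of the gate. *Gata2*, a factor of early progenitors, fell from 34.7 ± 2.73 to 2.27 ± 0.48 CPM (edgeR adjusted p = 1.2e-06). By *Alas2* and *Gata2*, the libraries thus differ in markers of erythroid stage along with the label. Among markers of other cells, summed levels in control and Kit-lo libraries were 8.52 to 13.7 and 7.82 to 8.36 CPM for macrophages (7 of 8 in the table, *Adgre1* at 3 counts or fewer in every library), 25.5 to 37.4 and 15 to 23.2 CPM for granulocytes (7 of 8) and 4.31 to 6.63 and 6.73 to 16 CPM for megakaryocytes (3 of 5). Their part in the results below was not tested. CPM denotes counts scaled to a common library total with edgeR's trimmed mean of M-values.

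In control CFU-E the subunit transcripts differed widely in level. The order was taken per kilobase of all exons of a gene. *Atp5b*, the catalytic beta subunit of the ATP synthase, led with 1002 ± 64.6 CPM per kilobase (SD, n = 3). *Sdhd*, a membrane anchor of succinate dehydrogenase, followed at 675 ± 39.7 CPM per kilobase, *Cox6a1* at 388 ± 32.5 and *Atp5c1*, the gamma subunit that forms the rotating shaft of the ATP synthase, at 310 ± 17.4. *Cox8a* (264 ± 10.2), *Sdha* (258 ± 14.4) and *Cox7a2l* (250 ± 24.0) came next and lay within each other's spread. The lowest were *Atp5j2* (1.38 ± 0.17), *Ndufa1* (1.57 ± 0.18) and *Atp5j* (1.94 ± 0.38). In complex I the leading pair was *Ndufb9* (185 ± 8.81) and *Ndufc2* (173 ± 9.87), and in complex III *Uqcrc1*, a core protein, at 188 ± 5.99. The length of a gene model sets this order in part, and the median level of complex V members was 30.4 CPM per kilobase of all exons but 81.3 CPM per kilobase of the representative transcript.

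The first question was whether the subunit mRNAs differed between the Kit-lo and the control libraries. By the study's criterion of a 1.5-fold difference with an adjusted p under 0.05 (quasi-likelihood test of edgeR, Benjamini-Hochberg adjustment over 11979 genes), 1 of 79 members was higher in Kit-lo libraries and 0 were lower, where 12.1% of all genes tested were higher and 9.83% lower. By the adjusted p alone, 3 members (3.8%) were higher and 14 (17.7%) were lower, against 17.6% and 16.9% of all genes. DESeq2 likewise called 0 members lower by at least 1.5-fold, and by edgeR no member with an unadjusted p under 0.05 had an estimate that low. The lower share by the adjusted p lay close to the background and the higher share under it. Without control replicate 3 the number of lower members was 9, and without Kit-lo replicate 3 it was 18. Groups did not overlap in 10 members that were higher and 26 that were lower (12.7% and 32.9%), compared with 23.5% and 24.0% of all genes. Fold changes of the members were small. The median log2 fold change was -0.09, beside 0.01 over all genes, the interquartile range was 0.39 log2 units, beside 0.76 over all genes, and 50 of 79 were negative. The 95% confidence interval of the fold change lay inside 1.5-fold either way for 55 members (69.6%), compared with 28.8% of all genes, and 1 member (1.27%) had an estimate past that fold, compared with 32.9%. The members also had a higher median level, 6.15 log2 CPM beside 4.63 over all genes tested. Estimates are more precise at higher counts, and the part of level in these comparisons was not tested.

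**Figure D1:**
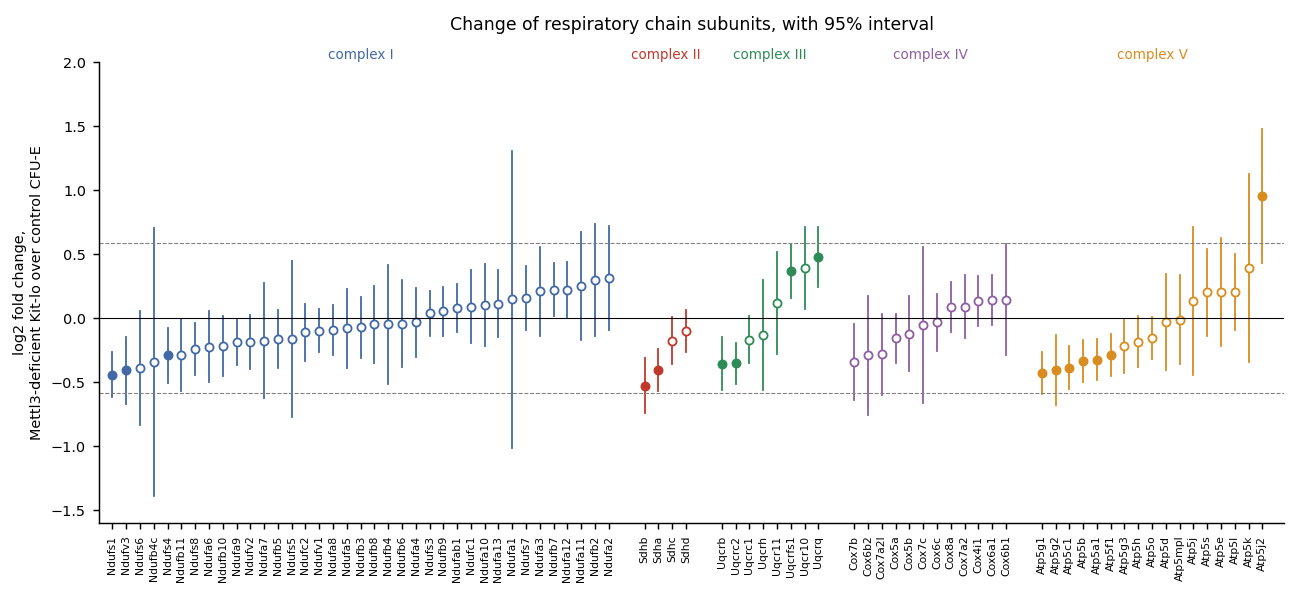
The log2 fold change of 78 members in *Mettl3*-deficient CFU-E Kit-lo over control CFU-E is plotted by complex, with its 95% confidence interval, filled points marking an adjusted p under 0.05 and dashed lines the 1.5-fold limits. Filled points lie below 0 for 13 of the members plotted and above 0 for 3, and *Atp5j2* at 0.96 is the member whose estimate lies past the dashed line.

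Complex II had the lowest median of the 5 complexes, -0.29, and all 4 of its members were negative. *Sdhb* (chr4:140961203-140979193, plus strand, GRCm38), the iron-sulfur protein that carries electrons from the flavin to ubiquinone, measured 155, 144 and 145 CPM in control and 108, 91.5 and 108 CPM in Kit-lo libraries. Every Kit-lo library was below every control library, and the mRNA fell by 0.53 ± 0.10 on the log2 scale (SE, edgeR adjusted p = 0.0021), a difference of -30.6%. *Sdha* (chr13:74322254-74350280, minus strand), the flavoprotein that oxidizes succinate, was at 1032, 1031 and 1134 CPM in control and at 837, 815 and 762 CPM in Kit-lo libraries. The groups again did not overlap, and *Sdha* fell by 0.41 ± 0.08 (adjusted p = 0.0022 by edgeR). The membrane anchors differed less from control. *Sdhc* was at 181, 194 and 179 CPM in control and 160, 157 and 172 CPM in Kit-lo libraries, which did not overlap, yet it did not pass the test (-0.18 ± 0.08, edgeR adjusted p = 0.13). *Sdhd* was at 833, 781 and 879 CPM against 762, 762 and 801 CPM, overlapping values, with a log2 fold change of -0.10 and a 95% interval of -0.26 to 0.06 (edgeR adjusted p = 0.33).

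Complex V held 6 of the 14 lower members and 1 of the 3 higher ones, with a median log2 fold change of -0.15. These were 35.3% and 5.88% of its members, against 16.9% and 17.6% of all genes tested. In the F1 head, the part that makes ATP, 3 of 5 subunits fell. *Atp5b* (chr10:128083273-128090391, plus strand) was at 4093, 4084 and 4563 CPM in control and at 3324, 3247 and 3539 CPM in Kit-lo libraries, with no overlap. It fell by 0.33 ± 0.08 on the log2 scale (edgeR adjusted p = 0.0065). The alpha subunit *Atp5a1*, which shares the hexamer with beta, was at 637, 639 and 663 CPM in control and 533, 484 and 530 CPM in Kit-lo libraries, again separate groups, and fell by 0.33 ± 0.07 (adjusted p = 0.006, edgeR). For the gamma subunit *Atp5c1*, control values of 557, 593 and 623 CPM and Kit-lo values of 437, 445 and 474 CPM did not overlap either, and it fell by 0.39 ± 0.08 (edgeR adjusted p = 0.003). The small F1 subunits of the central stalk did not pass: *Atp5d* had a log2 fold change of -0.03 (adjusted p = 0.92 in edgeR) and *Atp5e* one of 0.20 (adjusted p = 0.45 in edgeR).

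The rotor of the ATP synthase is a ring of identical c subunits, whose mature protein is encoded by 3 genes with different import signals. *Atp5g1* was at 407, 377 and 365 CPM in control and at 287, 278 and 290 CPM in Kit-lo libraries. The groups were apart, and it fell by 0.43 ± 0.07 (edgeR adjusted p = 0.0016). *Atp5g2* fell by 0.41 ± 0.12 (adjusted p = 0.027, edgeR), but near-identical processed pseudogenes are also in the table, so its counts are uncertain, and it did not pass without control replicate 2, control replicate 3 or Kit-lo replicate 2. *Atp5g3* was at 137, 142 and 136 CPM in control and 108, 119 and 130 CPM in Kit-lo libraries, without overlap, and its log2 fold change of -0.22 ± 0.09 did not pass (edgeR adjusted p = 0.1). In the peripheral stalk, which holds the head still while the rotor turns, *Atp5f1* (subunit b) fell by 0.29 ± 0.07 (adjusted p = 0.014, edgeR), with *Wdr77* overlapping 8.21% of its exonic bases on the opposite strand, and did not pass without control replicate 3. Among the small membrane subunits, *Atp5j2* (chr5:145183698-145192062, minus strand), which encodes subunit f, rose from 108, 77 and 71 counts in control to 157, 177 and 187 counts in Kit-lo libraries. These are 5.17, 4.40 and 4.06 against 8.15, 8.59 and 9.75 CPM, separate groups and a log2 fold change of 0.96 ± 0.23 (edgeR adjusted p = 0.01) at the lowest counts of any member that passed. In the m6A inputs of control CFU-E, which were normalized separately, *Atp5j2* was at 321 and 420 CPM.

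In complex I, 4 of 38 members fell and 0 rose by edgeR or DESeq2, with 2 of those higher at an unadjusted p under 0.05, and the median log2 fold change was -0.07. By edgeR its shares of 10.5% lower and 0% higher both lay under the 16.9% and 17.6% of all genes tested. The 7 catalytic core subunits, which carry the flavin and the iron-sulfur clusters, had a median of -0.18. *Ndufs1* (chr1:63143596-63176833, minus strand), the largest core subunit, was at 408, 405 and 465 CPM in control and 315, 304 and 321 CPM in Kit-lo libraries. The groups did not overlap and *Ndufs1* fell by 0.44 ± 0.08 (edgeR adjusted p = 0.002). The lincRNA *Ino80dos* overlaps 6.05% of its exonic bases on the opposite strand. *Ndufv1*, which binds NADH, was at 314, 296 and 310 CPM against 276, 278 and 305 CPM, values that overlapped, and its log2 fold change of -0.10 ± 0.08 did not pass (edgeR adjusted p = 0.35). Among 31 accessory subunits, *Ndufv3* fell by 0.41 ± 0.12 (edgeR adjusted p = 0.022) and *Ndufs4*, a subunit whose loss causes Leigh syndrome in humans, by 0.29 ± 0.10 (edgeR adjusted p = 0.039). *Ndufs4* passed in 6 of 13 alternatives, and of the fits that left out a library it passed in the 1 without Kit-lo replicate 3. *Ndufv3* did not pass without Kit-lo replicate 2 or without any 1 of the control replicates. The 2 members of complex I highest per kilobase did not pass, *Ndufb9* at 0.05 (edgeR adjusted p = 0.69) and *Ndufc2* at -0.11 (edgeR adjusted p = 0.44). *Ndufa4*, counted here by its name although the protein is found in complex IV, was at 46.9, 52.4 and 41.2 CPM in control and 45.6, 47.7 and 44.1 CPM in Kit-lo libraries.

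Complex III had as many members higher as lower, 2 of 8 each, and its median log2 fold change was -0.01. *Uqcrfs1* (chr13:30540308-30545362, minus strand), the Rieske iron-sulfur protein that takes electrons from ubiquinol, was at 99.7, 99.2 and 84.9 CPM in control and 124, 122 and 120 CPM in Kit-lo libraries. All Kit-lo values were above all control values, and it rose by 0.37 ± 0.10 (edgeR adjusted p = 0.013). *Uqcrq* (chr11:53427922-53430831, minus strand), a small subunit beside cytochrome b, was at 90.7, 88.9 and 83.0 CPM against 128, 106 and 131 CPM, also separate, and rose by 0.48 ± 0.11 (adjusted p = 0.006, edgeR). The core protein *Uqcrc2* was at 240, 234 and 232 CPM in control and 189, 180 and 183 CPM in Kit-lo libraries. It fell by 0.35 ± 0.07 (edgeR adjusted p = 0.0042), with separate groups, and *Pdzd9* overlaps 19.75% of its exonic bases on the opposite strand. *Uqcrb* fell by 0.36 ± 0.09 (edgeR adjusted p = 0.014) and has a near copy in the genome, so its count is uncertain. It did not pass without control replicate 3 or without Kit-lo replicate 2, nor did *Uqcrfs1* without control replicate 3. The other core protein, *Uqcrc1*, was at -0.17 ± 0.08 (edgeR adjusted p = 0.14).

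No member of complex IV passed edgeR's test (0 of 12, median -0.04), 1 had an unadjusted p under 0.05, and DESeq2 also called 0. By edgeR, 17.6% of all genes tested passed as higher and 16.9% as lower. The lowest was *Cox7b* at 36.5, 30.2 and 33.8 CPM in control and 28.7, 24.7 and 26.0 CPM in Kit-lo libraries, which did not overlap (-0.34 ± 0.13, edgeR adjusted p = 0.076). Of the subunits that exist as isoforms, *Cox4i1* was at 211, 208 and 182 CPM against 215, 210 and 236 CPM, and *Cox6a1* at 273, 295 and 249 CPM against 295, 285 and 323 CPM, both overlapping. *Cox7a2l*, which links complexes III and IV in supercomplexes, was at 330, 399 and 378 CPM in control and 250, 281 and 379 CPM in Kit-lo libraries, where replicate 3 lay with the controls. *Cox6b2*, the isoform known from testis, was at 20.1, 19.96 and 17.9 CPM against 18.2, 18.3 and 11.0 CPM.

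**Figure D2:**
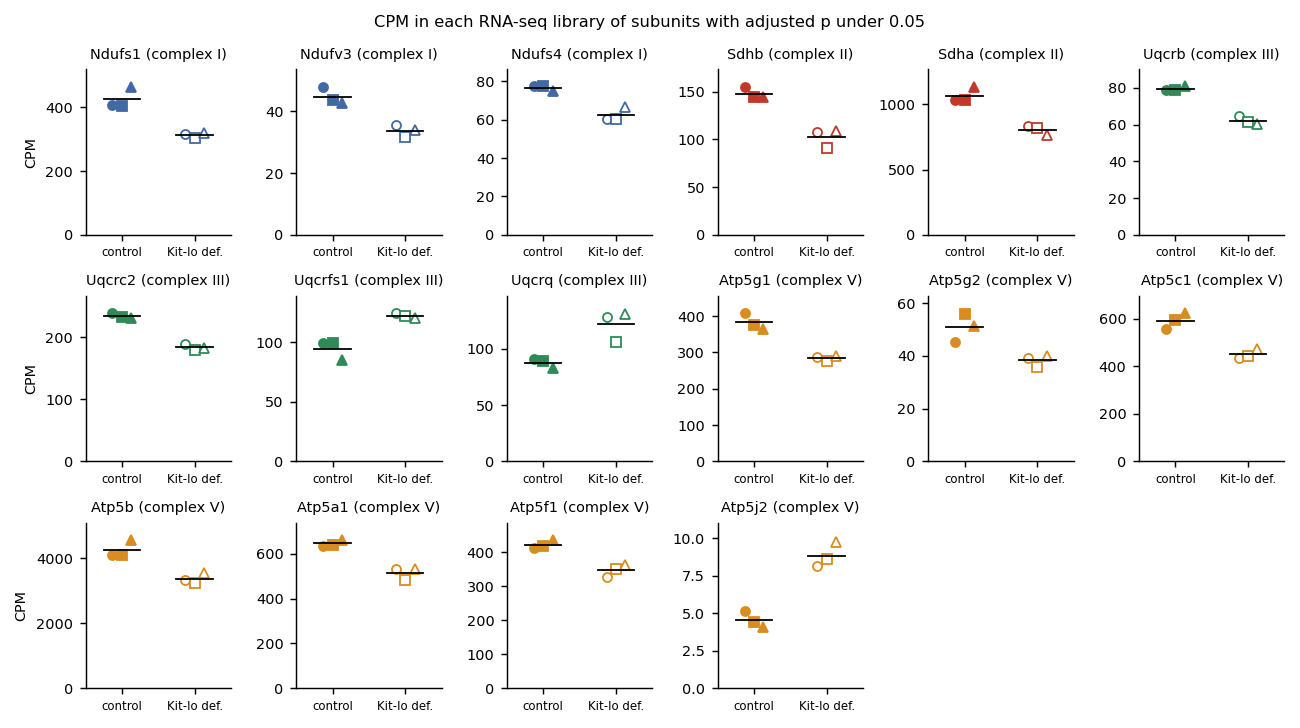
CPM in each library is plotted for 16 members with an adjusted p under 0.05, control CFU-E beside Kit-lo, with the line at the group mean (n = 3). In each panel the points of the groups do not overlap, and the Kit-lo points lie above the control points for *Uqcrfs1*, *Uqcrq* and *Atp5j2*.

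The mRNA of a whole complex was then compared as the sum of its members' CPM. For complex V the sums were 6905, 6910 and 7398 CPM in control and 5608, 5525 and 5950 CPM in Kit-lo libraries, so the Kit-lo mean was 80.5% of control. *Atp5b* supplied 59.6% of that sum, and without it the ratio was 82.3%. For complex II, the control sums of 2200, 2150 and 2337 CPM stood against 1867, 1826 and 1844 CPM in Kit-lo libraries, 82.8% of control, or 89.5% without *Sdha*. Complex I summed to 3219, 3260 and 3267 CPM in control and 2952, 2878 and 3065 CPM in Kit-lo libraries, 91.3% of control. These 3 complexes were separate between groups. Sums for complex III (93.5% of control) and complex IV (97.3%) overlapped, and without *Uqcrc1* and *Cox7a2l* these ratios were 1.0 and 1.02. All members together made 1.49% to 1.53% of the counts in control libraries and 1.32% to 1.36% in Kit-lo libraries, a summed CPM at 85.9% of control. Scaled by library size alone that ratio was 0.891.

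**Figure D3:**
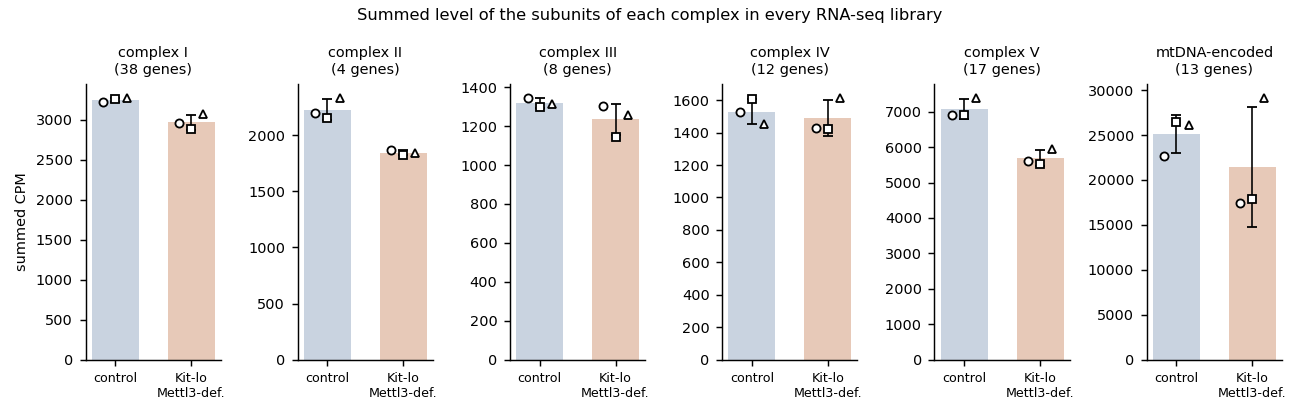
Bars show the mean summed CPM of the members of each complex and of the 13 subunits encoded by mitochondrial DNA in control CFU-E and Kit-lo libraries, with SD error bars and markers for the replicates (n = 3). Complexes I, II and V are separate between groups, complexes III and IV overlap, and Kit-lo replicate 3 stands above the controls for the subunits encoded by mitochondrial DNA.

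The mitochondrial genome supplies the remaining subunits, and its transcripts were compared with the nuclear members. The 13 summed to 22707, 26497 and 26129 CPM in control and to 17410, 17840 and 29180 CPM in Kit-lo libraries. Kit-lo replicates 1 and 2 lay below every control and replicate 3 above every control. All 13 had a negative log2 fold change, with a median of -0.25, and 1 passed the test (7.69%, against 16.9% of all genes tested as lower). It was *mt-Atp8*, at 20.2, 20.7 and 19.6 CPM against 11.8, 12.9 and 17.0 CPM (-0.54 ± 0.18, edgeR adjusted p = 0.039). The lowest estimate was that of *mt-Nd4l*, -1.07, which was past 1.5-fold but did not pass the test. Without Kit-lo replicate 3, 9 of the 13 passed as lower and the median was -0.46, whereas leaving out any other library gave 0 or 1. The median over all genes in the fit without Kit-lo replicate 3 was 0.01, and the share of them that passed is not given here. The nuclear members did not show replicate 3 apart in this way, with sums of 13159, 12796 and 13730 CPM in the Kit-lo libraries.

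Genes that serve the complexes without being among the members were read from 3 further lists. Of 48 assembly factors tested, 14 rose (29.2%) and 5 fell (10.4%), with a median log2 fold change of 0.19, beside 17.6% and 16.9% of all genes tested. *Ndufaf4*, a complex I assembly factor, was at 109, 85.2 and 111 CPM in control and 251, 245 and 212 CPM in Kit-lo libraries and rose by 1.21 ± 0.12 (edgeR adjusted p = 5e-05). *Ndufaf1*, which acts on the membrane arm of complex I, went from 77.2, 94.2 and 86.3 CPM to 190, 180 and 173 CPM, a rise of 1.08 ± 0.10 (adjusted p = 3.2e-05, edgeR). *Ndufaf5* moved the other way, from 12.4, 15.3 and 12.1 CPM to 4.52, 4.71 and 7.20 CPM (-1.28 ± 0.24, edgeR adjusted p = 0.0027). All 3 were separate between groups. Among the factors of complex IV, *Cox19* (1.03), *Coa7* (1.01), *Coa6* (0.97) and *Sco2* (0.89) rose, and *Sco2*, like *Cox17* (0.61), delivers copper to the complex. The other 4 that fell were *Cox15*, which makes the haem a of complex IV, at -0.64, *Acad9* at -0.61, *Cox18* at -0.52 and *Uqcc1* at -0.33. Of 17 electron carriers and subunits outside the name rule, 1 rose and 7 fell (5.88% and 41.2%, against the same 17.6% and 16.9%, median -0.27). *Cycs*, the cytochrome c that links complexes III and IV, was at 74.99, 62.3 and 72.8 CPM in control and 41.9, 45.2 and 51.0 CPM in Kit-lo libraries and fell by 0.61 ± 0.12 (adjusted p = 0.0035 by edgeR). *Etfa*, *Etfb* and *Etfdh*, which feed electrons from fatty acid oxidation to ubiquinone, fell by 0.50, 0.60 and 0.41, with edgeR adjusted p of 0.0014, 0.00098 and 0.0083. *Cyc1*, the cytochrome c1 of complex III, fell by 0.26 (edgeR adjusted p = 0.019), *Coq8a* and *Coq9* of ubiquinone synthesis by 1.26 and 0.28, and *Pdss2*, which makes the ubiquinone tail, rose by 0.58. Among 13 nuclear regulators of mitochondrial biogenesis, 2 rose and 3 fell (15.4% and 23.1%, near those shares of all genes), and the lower count was 0 without control replicate 3 or without Kit-lo replicate 2 and 1 without control replicate 1. *Pprc1*, a coactivator, rose by 0.62 ± 0.11 (edgeR adjusted p = 0.0021) and *Tfam*, which packages and transcribes mitochondrial DNA, fell by 0.38 ± 0.11 (edgeR adjusted p = 0.02). *Nrf1* rose by 0.32, and *Twnk*, the mitochondrial DNA helicase, and *Myc* fell by 0.41 and 0.38.

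Many nuclear respiratory chain genes are known to carry binding sites for nuclear respiratory factor 1 in their promoters, and the members that fell were examined for its motif. RefSeq promoters (GRCm38.p6, 250 bases before to 50 after the start) matched 67 of the 80 members, 2 of them by an older symbol, and 17 (25.4%) held the NRF1 motif (GCGCA, any base, GCGC) on either strand, compared with 5.19% of 27025 promoters and 10.4% of the 11121 that belong to genes in the RNA-seq table. The members with it had a median log2 fold change of -0.16 and those without it -0.04, and 3 members with it and 8 without it passed the RNA-seq test. Windows are given for 3 members that passed the RNA-seq test and for *Sdhd*, a member that did not, with the motif in capitals and each sequence read 5′ to 3′ on the strand of the gene. *Sdha* held 3 matches, of which 2 are shown.

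Sdha, chr13:74350266-74350315, minus strand: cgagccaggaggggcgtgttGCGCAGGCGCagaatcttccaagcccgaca
Sdha, chr13:74350309-74350358, minus strand: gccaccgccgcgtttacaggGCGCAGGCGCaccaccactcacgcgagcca
Sdhd, chr9:50603899-50603948, minus strand: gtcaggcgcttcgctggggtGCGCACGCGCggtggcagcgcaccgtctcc
Atp5c1, chr2:10080433-10080469, minus strand: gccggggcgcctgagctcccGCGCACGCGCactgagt
Atp5g2, chr15:102671060-102671109, minus strand: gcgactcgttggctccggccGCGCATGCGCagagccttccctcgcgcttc

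A match of these letters is a description of the window and not a site. Of the other motifs searched, CCGGAAG (the ETS core) was in 16 member promoters (23.9%, against 9.93% of all and 18.4% of those of genes in the table, with a median log2 fold change of 0.10 beside -0.12 in the members without it), AAGATGGC (YY1) in 10 (14.9%, against 3.19% and 4.89%), TATAAA in 5 (7.46%, against 15.7% and 10.7%) and AGATAA, a motif of the erythroid factor GATA1, in 6 (8.96%, against 12.7% and 9.07%). No site of one motif overlapped a site of another (0 pairs).

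The second question was whether the subunit mRNAs of control CFU-E carried m6A, read as their level in IP over input. Of 79 members, 1 was higher in IP (1.27%) and 1 was lower (1.27%) at an adjusted p under 0.05 in edgeR, where 7.9% of 11447 genes were higher and 7.86% lower. Most members are short, and among the 2284 genes with a representative transcript of 90 to 1703 bases, 1.58% were higher and 10.4% lower. Of the 68 members in that range, 0 were higher and 1 was lower. Their median log2 fold change was -0.01, beside -0.25 over all genes of that range. Few higher calls were thus common to short transcripts, and the part of length in these counts was not tested. The median log2 fold change of the members was -0.01, beside 0.06 over all genes, and with libraries scaled by size alone these medians were 0.14 and 0.21. Intact RNA was precipitated, so the values are per gene and give no position. *Ndufs1* was higher in IP. It was at 46.8 and 30.9 CPM in input and 143 and 61.5 CPM in IP, where the second IP library lay closer to the inputs, and its log2 fold change was 1.40 ± 0.37 (SE, n = 2 and 2, edgeR adjusted p = 0.03). *Atp5d* (chr10:80138632-80145818, plus strand) was lower in IP, at 977 and 938 CPM in input and 432 and 632 CPM in IP, separate groups with a log2 fold change of -0.85 ± 0.25 (edgeR adjusted p = 0.043). Neither call was kept in every fit that left out a library, which gave 0 to 2 higher and 0 to 8 lower members.

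m6A is written mostly at DRACH motifs, of which GGACT is a frequent form. The representative transcript of *Ndufs1* (2661 bases) holds it at 2 places, both in the coding sequence, and that of *Atp5d* (1410 bases) at 1 place, in the 5′ UTR. They are shown because these 2 members passed the m6A test, with the motif in capitals, in the sense of the mRNA.

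Ndufs1, base 1128, exon 10, chr1:63159847-63159851, minus strand: tgcttatgatGGACTaaaacgtcaa
Ndufs1, base 1916, exon 15, chr1:63149987-63149991, minus strand: tcacgcgacaGGACTtgccaaagga
Atp5d, base 54, exon 1, chr10:80141510-80141514, plus strand: cgcagggaggGGACTgcggagaaga

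Below the threshold in this fit, low members besides *Atp5d* were *Cox6b2* (-0.78, edgeR adjusted p = 0.097), *Atp5b* (-0.77, edgeR adjusted p = 0.055) and *Atp5g3* (-0.67, edgeR adjusted p = 0.077). *Atp5b* was at 3443 and 3428 CPM in input and at 1820 and 2208 CPM in IP, so the libraries were separate although it did not pass. The highest after *Ndufs1* were *Ndufa1* (0.87, edgeR adjusted p = 0.12), *Cox7c* (0.63, with a near copy in the table that makes its count uncertain), *Ndufa7* (0.60) and *Sdha* (0.56), the last at 266 and 186 CPM in input and 425 and 244 CPM in IP, which overlapped. By complex the medians were 0.01 for I, 0.47 for II, -0.10 for III, -0.05 for IV and -0.14 for V. Library replicates moved the members together: 76 of 79 had a higher CPM in IP replicate 2 than in IP replicate 1, by a median of 0.56 log2 units, and 71 of 79 did so between the inputs, by 0.23, while the medians over all genes were -0.06 and -0.01. This shift within groups is of the size of the differences listed here.

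**Figure D4:**
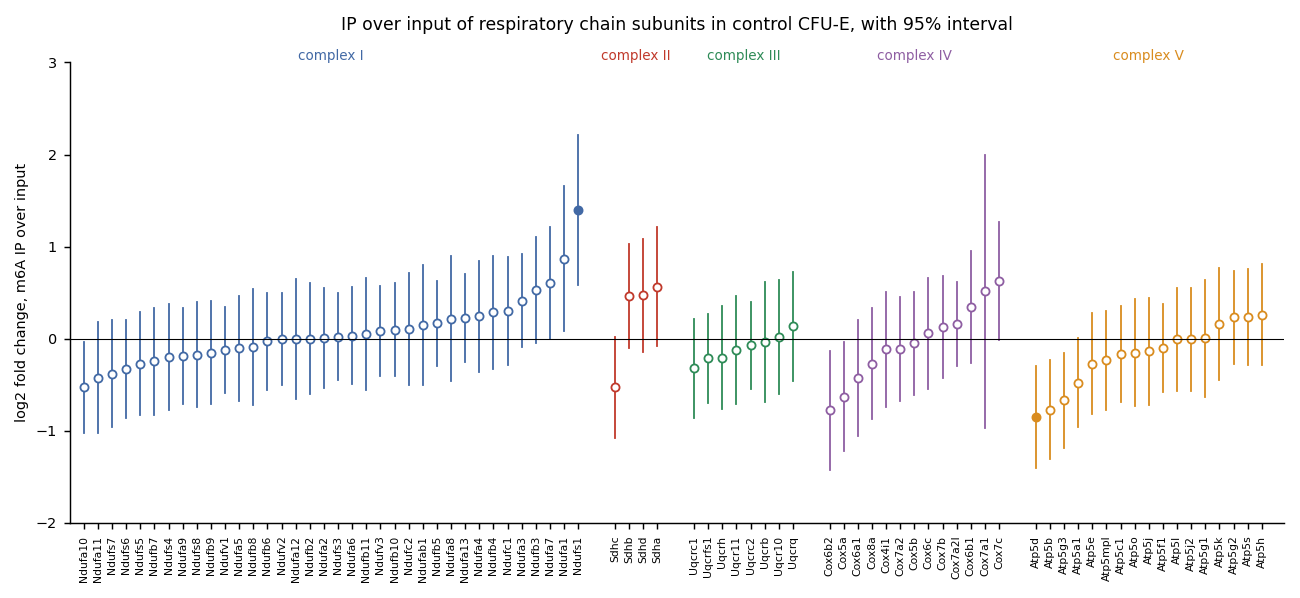
The log2 fold change of IP over input in control CFU-E is plotted for 78 members by complex, each with its 95% confidence interval and filled points for an adjusted p under 0.05. Most intervals cross 0, and the filled points are *Ndufs1* at 1.40 and *Atp5d* at -0.85.

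The members that differed in RNA-seq and those that differed in IP can be set side by side, since the control libraries of the 2 assays are separate. *Ndufs1* was lower in Kit-lo libraries (-0.44) and higher in IP (1.40). *Atp5d* was lower in IP (-0.85) and at -0.03 in RNA-seq. The 14 members lower in Kit-lo libraries had a median IP over input of -0.05, with 6 above 0 and 8 below. The 62 that did not pass had a median of -0.01, with 27 above 0 and 34 below. *Ndufb4c*, among these 62, has no IP over input value and is not in that median.

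The transcripts of the members share a short length. The median representative transcript was 863 bases, compared with 3116 over the 12824 genes in both tables, 68 members were in the shortest of 5 equal length classes, and 28 (35.9%) held no GGACT, compared with 7.78%, although per kilobase the median was 0.96 GGACT in members and 1.03 in all genes. Length also went with how each assay saw them. The input libraries keep the 3′ ends of cDNA, while the RNA-seq libraries were fragmented along the whole cDNA, and the 2 tables were normalized separately. The ratio of input to RNA-seq control was first taken from counts pooled over libraries and scaled by library totals alone. Its log2 value had a median of 2.50 over the members and -0.68 over all genes. With CPM as defined above, the median ratio of means in the shortest length class was 2.25-fold over all genes and 6.86-fold over the members there. *Ndufa1* (419 bases) was at 0.65 CPM on average in RNA-seq and at 78.2 and 177 CPM in the inputs, whereas *Ndufs1* (2661 bases) was at 417 CPM in RNA-seq and at 46.8 and 30.9 CPM in the inputs. Thus the order of levels given above holds for the RNA-seq assay.

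**Figure D5:**
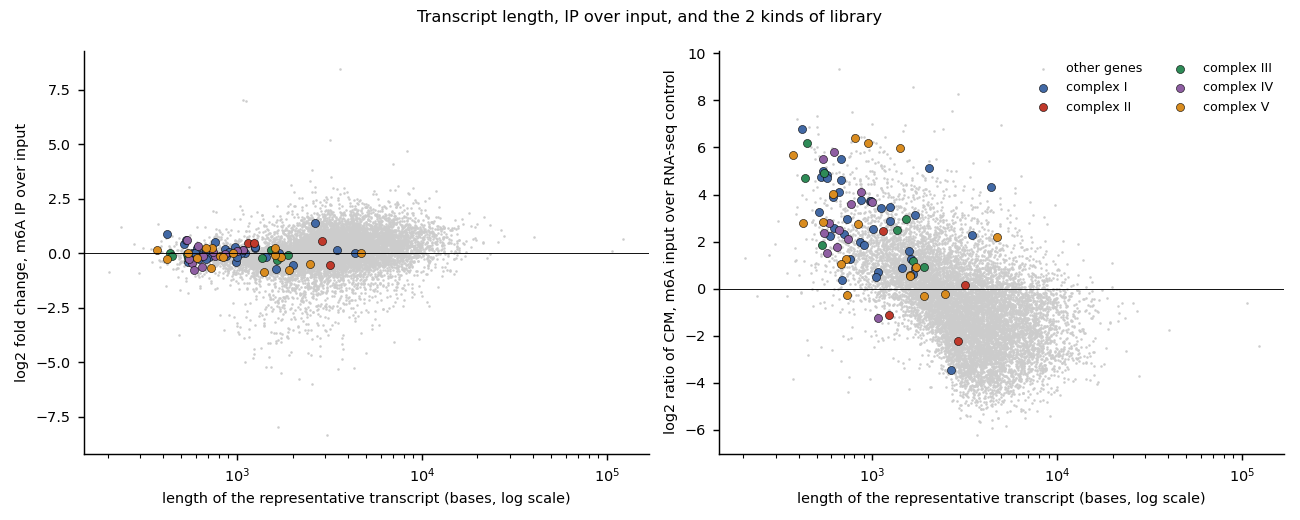
The log2 fold change of IP over input (left) and the log2 ratio of mean input CPM to mean RNA-seq control CPM (right) are plotted against the length of the representative transcript in bases on a log axis, with members in colour and other genes in grey. Members crowd at the short end. On the right, members of the shortest length class have a median log2 ratio of 2.78, beside 1.17 over all genes of that class. Among longer members some, such as *Ndufs1*, lie far lower and some, such as *Ndufb2*, higher.

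Across the members, which share libraries and are not independent, the RNA-seq log2 fold change had a Pearson r of -0.29 with log2 transcript length (n = 78) and of -0.38 with mean log2 CPM (n = 79), where over all genes both were near 0 (-0.02 and 0.01). The 14 members that passed as lower had a median length of 1717 bases and a median control level of 309 CPM. The 62 that did not pass had medians of 732 bases and 47.4 CPM, the length without *Ndufb4c*, which has no representative transcript. Precision rises with the count, and its part in which members passed was not tested. The IP over input value had an r of -0.06 with length over the members (n = 79) and 0.25 over all genes.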

How the data were processed

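The authors sorted CFU-E cells from mouse bone marrow, made RNA-seq libraries by Smart-seq2 and m6A IP and input libraries by SLIM-seq, filtered reads with fastp 0.23.4, quantified transcripts with kallisto 0.48.0 and summed them to genes with tximport. The estimated counts that the authors deposited, 1 column per library and not normalized, are whole numbers. The methods name mm10, while the labels name both mm10 and GRCm39. The strand and the use of molecular identifiers in counting are not given in the sources used here, so overlapping genes and PCR copies are uncertain, and replicate error sets the precision. Of 16 samples, 10 had values and the 6 ProE samples were not analysed here. The number of columns that belong to no sample was 0.

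Groups came from the labels. Kit-lo was compared with control CFU-E (3 and 3 libraries), and IP with input (2 and 2), by edgeR 4.0.16 in R 4.3.3 (filterByExpr, trimmed mean of M-values, glmQLFit and glmQLFTest) over the whole table, with 11979 and 11447 genes tested and Benjamini-Hochberg adjustment over them. SE is the log2 fold change divided by the square root of F. RNA-seq depth was 17429262 to 21329242 counts a library. DESeq2 1.42.0, other scalings, no filter, a replicate block and leaving out each library were tried as alternatives. The edgeR and DESeq2 steps were tested on simulated data. Positions, lengths and overlaps came from GENCODE vM21 (GRCm38), which held 99.94% and 99.93% of the symbols, and promoters from RefSeq GRCm38.p6. Near copies were transcripts of another gene that match at 95% identity over at least 50% of the length. Members and lists were chosen with earlier results of these data known. Members are named if past the 1.5-fold criterion, among the 2 highest per kilobase of a complex, isoforms of a subunit, among the 5 highest or 5 lowest in IP over input, or in complex II. Those past the adjusted p alone, and those set beside them, were named after their values were seen. The single values of 1 member are not reported here, though counts and sums over the members include it.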

Additional observations from a re-analysis of the deposited data

How the results depend on the processing

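In RNA-seq, the 17 members that passed had the same sign under all 13 alternatives and 11 passed under every one. *Atp5f1*, *Atp5g2*, *Ndufs4*, *Ndufv3*, *Uqcrb* and *Uqcrfs1* did not, each at least once. The member past 1.5-fold was lost when the test itself was set against that fold (0 higher), and with no fold threshold 3 were higher and 14 lower. Leaving out each library gave 1 to 2 higher members past the fold (2 without Kit-lo replicate 2, with *Uqcrq* added) and 0 lower each time, 2 to 3 higher and 9 to 18 lower by the adjusted p (9 without control replicate 3 and 18 without Kit-lo replicate 3), and a median of -0.12 to -0.06.

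In IP over input, neither call held under all 10 alternatives, though both kept their sign. DESeq2 called 4 lower (*Atp5b*, *Atp5d* and *Atp5g3* among them), library sizes alone 2 higher and 2 lower, upper quartile scaling 0 lower and no filter 2 lower. Library sizes and upper quartile moved the median of all genes from 0.06 to 0.21 and 0.18. Leaving out each library gave 0 to 2 higher, 0 to 8 lower and a median of -0.33 to 0.19, with -0.33, 2 higher and 8 lower without IP replicate 2.

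The replicate block, with the number in the labels as a term, gave 3 higher and 12 lower members in RNA-seq, where 16.3% and 15.7% of all genes were then higher and lower, and 8 higher and 11 lower in IP over input, where 15.6% and 15.3% of all genes were. The 19 in IP over input include *Cox6b2*, *Atp5b*, *Atp5g3*, *Ndufa1*, *Cox7c*, *Ndufa7* and *Sdha*, which did not pass without the block. Nothing in the labels says that a number marks a shared animal or day. Same-numbered RNA-seq libraries correlated at 0.03, -0.02 and -0.07 in their deviations from the group means. Differently numbered ones ran from -0.105 to 0.12, so no pairing by number was seen there. With 3 libraries a group these values do not settle it, nor does the m6A value of 0.20 with 2 pairs.

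The median level per kilobase of complexes I to V in that order was 26.8, 162, 58.6, 57.8 and 30.4 CPM by all exons, 91.7, 451, 107, 155 and 111 by the median transcript, and 63.3, 249, 63.5, 121 and 81.3 by the representative transcript, an alternative chosen after seeing the data, as were those for the summed CPM. The cause of these changes was not tested beyond the change of length or samples itself.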

Other observations

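Genes of mitochondrial function outside the members were compared between IP and input in control CFU-E, where 7.86% of all genes were lower in IP and 7.9% higher. Of the 13 transcripts of mitochondrial DNA, 3 (23.1%) were lower in IP by edgeR's adjusted p: *mt-Co3* (log2 fold change -1.58, edgeR adjusted p = 0.0029), *mt-Nd1* (-0.93, edgeR adjusted p = 0.028) and *mt-Nd4l* (-0.91, edgeR adjusted p = 0.039). Leaving out each library gave 0 to 6 lower. *Coq2*, which joins the ring and the tail of ubiquinone, was at 82.4 and 74.8 CPM in input and 10.7 and 8.54 CPM in IP, 1 of 2 lower among 17 electron carriers and related genes. The other was *Coq6* (-0.87, edgeR adjusted p = 0.038), and *Etfdh* was higher in IP (0.75, edgeR adjusted p = 0.049). Without IP replicate 1, input replicate 1 or input replicate 2 this list had 0 higher and 1 lower. *Esrra*, a nuclear receptor that drives mitochondrial genes, was at 20.5 and 17.1 CPM in input and 4.20 and 4.77 CPM in IP. Among assembly factors, 3 of 49 (6.12%, under the share of all genes) were lower in IP: *Ttc19*, *Sco2* and *Pet117*, the last at 26 and 12 counts in input and 0 and 0 counts in IP.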
